A study of Mus musculus with 4 samples.

Results

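Mitosis and G2/M genes are described here in mouse macrophages that had been derived from MCA fibrosarcomas and given exosomes, small vesicles that cells release, in culture. The 36 genes were chosen by name, for their known roles in entry into and passage through mitosis, with earlier results of these data known. All 36 were found among the 55029 gene identifiers of the authors' deposited table. The treatments were exosomes with much MEK1 (MEK1-hi, 2 samples) or with little (MEK1-low, 2 samples), MEK1 being the kinase that activates ERK. The MEK1-low exosomes also carry the label GFP, so MEK1 content and that difference cannot be told apart. All samples have the wild-type genotype and the cell line label 9609 parent. No untreated macrophages were among the samples, and since no label tells whether a group's samples are separate animals or cultures, p-values here may measure technical spread only. The table gives 1 level per group, in FPKM (fragments per kilobase of transcript, scaled for library size), so no spread between samples can be printed, and values per sample were not used here.

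As background, a dividing cell enters mitosis when CDK1, bound to cyclin A or B and freed of inhibitory phosphates by CDC25 phosphatases, becomes active. The spindle then captures chromosomes at kinetochores, a checkpoint holds back the anaphase-promoting complex (APC/C) until all are attached, and separase cuts cohesin so that sister chromatids part. Transcripts of this programme rise together late in the cell cycle and are low in resting cells, so in a bulk sample they reflect how many cells are cycling as well as the level per cell, which cannot be told apart here.

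Many promoters of the programme are known to share an NF-Y box (CCAAT) and a cell cycle homology region, or CHR, bound by the DREAM and MuvB complexes. The common form of the CHR reads TTTGAA. A related form, called the A form here, has the letters TTTAAA. Promoters of 30 of the 36 genes could be matched in RefSeq (GRCm38.p6), each taken from 250 bases before to 50 bases after the start and searched on both strands. A CCAAT was present in 22 of the 30 promoters (73.3%), against 37.9% of the 26995 promoters of other genes. The common CHR form was present in 21 of 30 (70.0%), against 4872 of the 26995, and the A form in 9 of 30, against 13.1%. Both kinds of element stood together in 20 of 30 (66.7%), against 10.9% of the other promoters and 7.56% of those whose gene the authors had tested. A common-form CHR that began within 50 bases of the start was found in 19 of 30 (63.3%), against 4.86%. Counted from the start at 0, the median position was -67.5 for the 50 NF-Y boxes and -5 for the 27 matches of the common CHR form. In 6 of 30 promoters, against 1.62% of the others, 2 NF-Y boxes of the same orientation began 28 to 36 bases apart. The letters of the 2 CHR forms do not allow their matches to overlap. A match is a run of letters, and binding was not measured.

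The promoter stretches of the 3 highest-level genes that hold both elements are shown from 120 bases before to 30 bases after the start, 5′ to 3′ along the gene, to show both kinds of element in place. Of the 3, Cdk1 is among the 6 promoters with the spaced pair of NF-Y boxes, and Cenpa and Espl1 are not. Capitals mark the NF-Y boxes, all of which lie on the other strand here, and both CHR forms.
Cdk1, chr10:69352883-69353032, minus strand: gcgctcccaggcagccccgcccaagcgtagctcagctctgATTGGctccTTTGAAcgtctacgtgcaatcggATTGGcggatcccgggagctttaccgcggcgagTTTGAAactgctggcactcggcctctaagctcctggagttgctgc
Cenpa, chr5:30666766-30666915, plus strand: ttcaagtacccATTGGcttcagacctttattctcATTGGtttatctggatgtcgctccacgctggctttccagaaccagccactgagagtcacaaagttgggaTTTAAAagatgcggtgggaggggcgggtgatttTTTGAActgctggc
Espl1, chr15:102296173-102296322, plus strand: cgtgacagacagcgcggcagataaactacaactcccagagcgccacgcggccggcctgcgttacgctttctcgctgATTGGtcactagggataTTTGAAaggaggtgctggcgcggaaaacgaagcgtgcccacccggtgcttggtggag
In the Cdk1 stretch, NF-Y boxes began at -80 and -48 and common-form CHRs at -71 and -15. The Cenpa stretch held NF-Y boxes at -109 and -86, an A-form CHR at -17 and a common-form CHR at 16. The Espl1 stretch held 1 NF-Y box, at -44, and 1 common-form CHR, at -27. Positions count from the start of 1 RefSeq entry per gene. For these 3 genes that start is not the GENCODE gene start given below, so the positions depend on the annotation used.

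**Figure D1:**
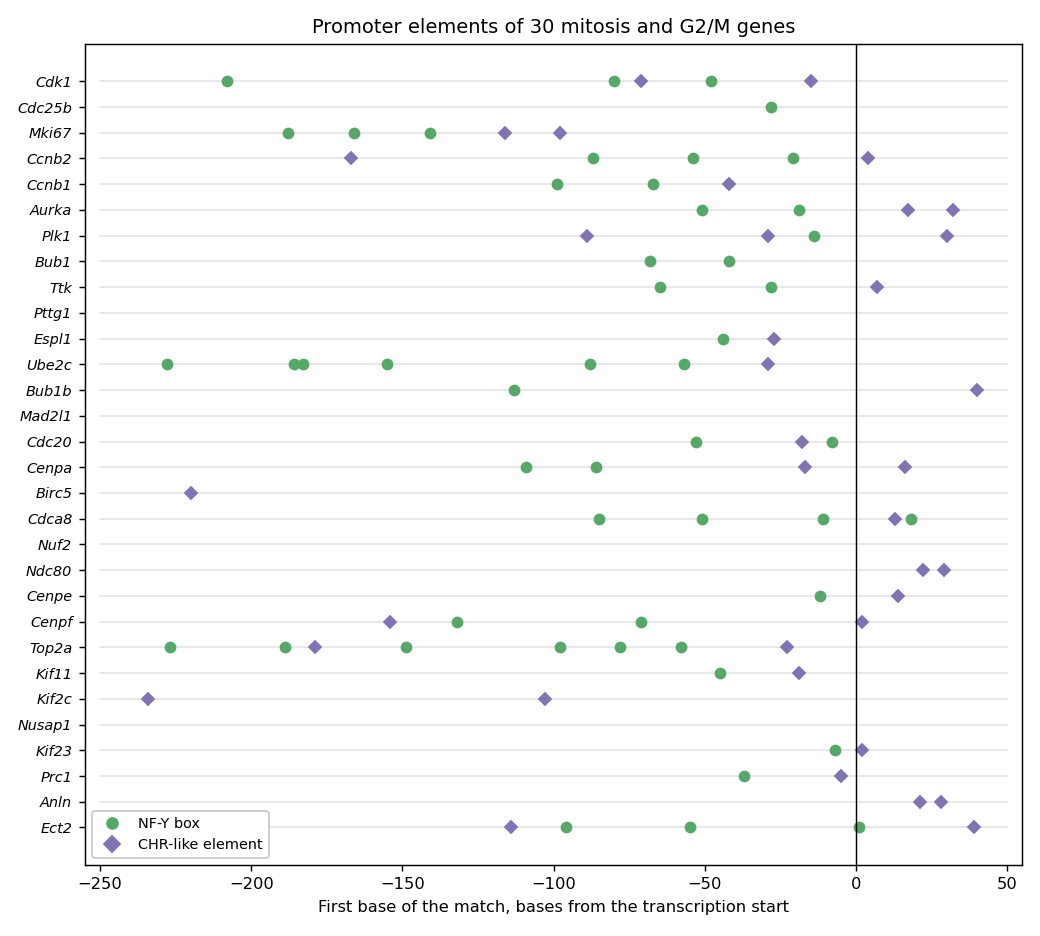
Positions of NF-Y boxes (circles) and CHR-like elements (diamonds) in the promoters of the 30 genes with a RefSeq promoter, as bases from the transcription start on the horizontal axis. In 21 of the 30 promoters a CHR-like element begins within 50 bases of the start, and 4 promoters hold neither element.

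None of the 36 genes passed the authors' test. The authors' Cuffdiff run tested all 36, and 0 had a q-value under 0.05 in the authors' deposited table, while 2.44% of the 12648 loci tested did (0.751% higher and 1.69% lower with MEK1-hi exosomes). At an unadjusted p under 0.05, 1 of the 36 was higher with MEK1-hi exosomes (2.78%) and 0 were lower, against 8.66% of all loci tested. Values were higher with MEK1-hi exosomes for 19 genes and lower for 17, and the median log2 ratio (MEK1-hi over MEK1-low) was 0.03, beside 0.00 over all loci tested. The ratio stayed within 1.2-fold either way for 25 of the 36, and exceeded 1.5-fold for 2, Cenpf and Espl1. Over all loci tested and above 0 in both groups, 68.9% stayed within 1.2-fold and 10.8% exceeded 1.5-fold. A q-value that misses the threshold does not show that the levels were equal.

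The programme was expressed at a low level. Where a pair of FPKM values is given for a gene, the MEK1-low value comes first and the MEK1-hi value second. The median over the 36 genes was a mean of 3.34 FPKM, against 10.7 FPKM over the loci tested, and 32 of the 36 lay below the midpoint of the tested loci. Together the 36 genes summed to 209 FPKM under MEK1-low and 197 FPKM under MEK1-hi exosomes, a ratio of 0.943, and made up 0.0323% and 0.0314% of the FPKM total. Without Espl1 the sums were 197 and 190 FPKM. The order of the 36 levels was nearly the same in both groups (Spearman's rho 0.983 across genes, which share the libraries and are not replicates).

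**Figure D2:**
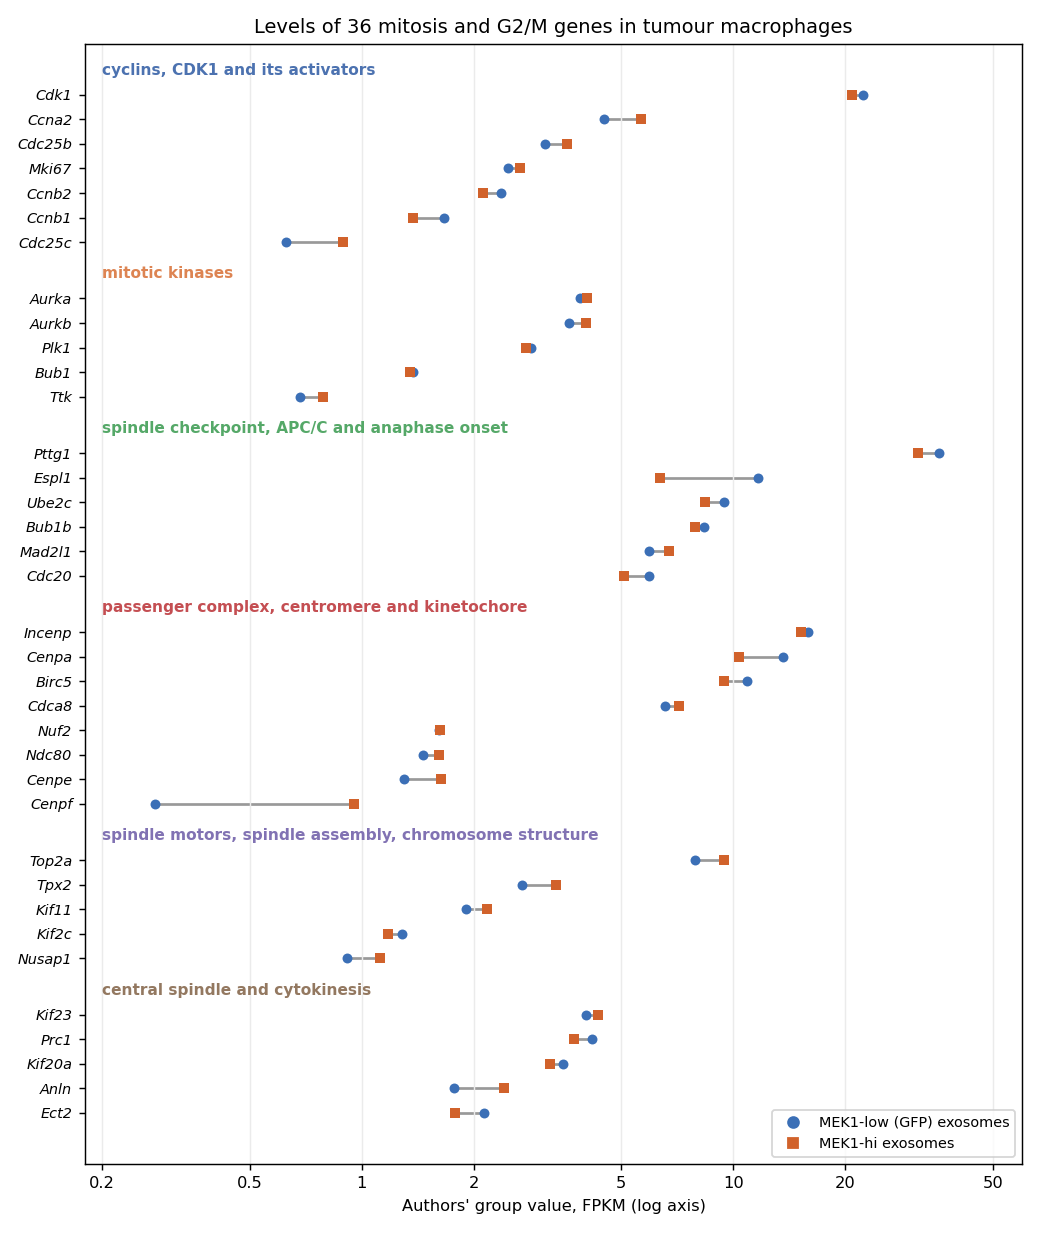
Levels of the 36 genes by role, as the authors' group value in FPKM on a log axis, with circles for MEK1-low and squares for MEK1-hi exosomes. The circle and square of most genes nearly touch, and the widest gaps are those of Cenpf (0.278 and 0.955 FPKM) and Espl1 (11.6 and 6.36 FPKM).

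Among the cyclins, CDK1 and its activators, 4 values were higher and 3 lower with MEK1-hi exosomes, and 0 of 7 passed the test. Cdk1, the kinase that drives entry into mitosis (chromosome 10, 69335146 to 69352938, mm10), had levels of 22.4 FPKM under MEK1-low and 20.9 FPKM under MEK1-hi exosomes, a log2 ratio of -0.10. Its cyclin partners were much lower per length than Cdk1 itself. Ccna2, cyclin A2, which acts from S phase to early mitosis, stood at 4.48 and 5.64 FPKM (log2 ratio 0.33). Ccnb1, cyclin B1, the main partner of CDK1 in mitosis, stood at 1.67 and 1.37 FPKM (log2 ratio -0.28), and Ccnb2, cyclin B2, at 2.37 and 2.12 FPKM (log2 ratio -0.16). Thus the cyclin A value was higher and both cyclin B values were lower with MEK1-hi exosomes, none of them called. Cdc25b, a phosphatase that starts CDK1 activation, stood at 3.11 and 3.56 FPKM, and Cdc25c, which takes part in its amplification, at 0.625 and 0.893 FPKM. Mki67, whose product Ki-67 coats mitotic chromosomes and is the usual marker of cycling cells, stood at 2.47 and 2.67 FPKM (log2 ratio 0.11). The summed level of the 7 genes was 37.1 FPKM in each group.

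The mitotic kinases had the narrowest spread of the 6 role groups. All 5 had log2 ratios between -0.05 and 0.20, and 0 were called. Plk1, which acts at centrosomes, kinetochores and the midbody, stood at 2.86 and 2.77 FPKM. Aurka, of spindle poles, stood at 3.87 and 4.04 FPKM, and Aurkb, of centromeres and the midzone, at 3.61 and 4.01 FPKM. The checkpoint kinase genes were lower in level than these. Bub1 stood at 1.37 and 1.35 FPKM, and Ttk, which encodes the checkpoint kinase MPS1, at 0.681 and 0.785 FPKM.

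Genes of the spindle checkpoint, the APC/C and anaphase onset had lower values with MEK1-hi exosomes in 5 of 6, with 0 called and a median log2 ratio of -0.18. Pttg1, which encodes securin, the inhibitor of separase, had the highest level of all 36 genes, 35.8 FPKM under MEK1-low and 31.4 FPKM under MEK1-hi exosomes (log2 ratio -0.19). Espl1, which encodes separase itself (chromosome 15, 102296266 to 102324357), stood at 11.6 and 6.36 FPKM. The MEK1-low value was 1.83 times the MEK1-hi value (log2 ratio -0.87, p = 0.195, q = 0.965 in the authors' deposited table). Among tested loci of 5 to 10 FPKM, 56 had a log2 ratio at least as far from 0 as that of Espl1, and 34 of these were called while 22, Espl1 among them, were not. Securin and separase transcripts thus both had lower values with MEK1-hi exosomes, and neither passed the test.

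Cdc20, the activator of the APC/C in mitosis, stood at 5.92 and 5.10 FPKM, and Ube2c, the ubiquitin-conjugating enzyme that works with it, at 9.46 and 8.37 FPKM (log2 ratios -0.22 and -0.18). Of the checkpoint proteins that hold CDC20 back, Bub1b, which encodes BUBR1, stood at 8.36 and 7.91 FPKM. Mad2l1, which encodes MAD2, was the 1 gene of this group with a higher value, 5.94 and 6.72 FPKM (log2 ratio 0.18).

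In the passenger complex, centromere and kinetochore group, 5 values were higher and 3 lower, with 0 of 8 called. The chromosomal passenger complex joins Aurora B to INCENP, survivin and borealin, and its transcripts had unequal levels. Incenp, the scaffold, stood at 15.9 and 15.2 FPKM, Birc5, which encodes survivin, at 10.9 and 9.44 FPKM, and Cdca8, which encodes borealin, at 6.57 and 7.14 FPKM, all above Aurkb. Cenpa, the histone H3 variant that marks centromeres (chromosome 5, 30666777 to 30674830), had 13.6 FPKM under MEK1-low and 10.3 FPKM under MEK1-hi exosomes. Its log2 ratio of -0.40 was the lowest after that of Espl1 (p = 0.12, q = 0.842 in the authors' deposited table).

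The outer kinetochore genes were far lower in level than Cenpa. Ndc80 and Nuf2, partners in the complex that binds microtubules, stood close to each other, at 1.46 and 1.62 FPKM for Ndc80 and at 1.62 and 1.63 FPKM for Nuf2. Cenpe, a kinetochore motor, stood at 1.30 and 1.64 FPKM (log2 ratio 0.33). Cenpf, a large kinetochore and nuclear matrix protein (chromosome 1, 189640606 to 189688086), had the lowest level of the 36 genes with MEK1-low exosomes, 0.278 FPKM, and stood at 0.955 FPKM with MEK1-hi exosomes. This 3.43-fold ratio (log2 ratio 1.78) was the 1 that reached an unadjusted p under 0.05, with p = 0.0481 and q = 0.564 in the authors' deposited table. Of tested loci between 0.5 and 1 FPKM, 42 had log2 ratios at least as far from 0, and 3 of them were called. On the log2(FPKM + 1) scale the difference was 0.61.

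Of the spindle motors, spindle assembly and chromosome structure genes, 4 of 5 had higher values with MEK1-hi exosomes, with 0 called, a median log2 ratio of 0.26 and sums of 14.7 and 17.3 FPKM. Top2a, the topoisomerase that untangles sister chromatids, stood at 7.88 and 9.46 FPKM (log2 ratio 0.26), in a locus joined with a small RNA gene. Tpx2, which activates Aurora A and seeds spindle microtubules, stood at 2.70 and 3.33 FPKM (log2 ratio 0.31). Nusap1, a microtubule bundler, stood at 0.913 and 1.12 FPKM. The motors differed less. Kif11, the kinesin that pushes spindle poles apart, stood at 1.91 and 2.17 FPKM, and Kif2c, which takes microtubules apart at centromeres, at 1.28 and 1.18 FPKM.

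Genes of the central spindle and cytokinesis had 2 higher and 3 lower values, with 0 of 5 called. Prc1, which bundles midzone microtubules, stood at 4.17 and 3.73 FPKM, Kif23, a centralspindlin motor, at 4.01 and 4.32 FPKM, and Kif20a, a midzone kinesin, at 3.48 and 3.22 FPKM. The genes that act on the contractile ring went opposite ways. Anln, which encodes anillin, stood at 1.77 and 2.42 FPKM (log2 ratio 0.45), and Ect2, which activates RhoA for the ring, at 2.13 and 1.78 FPKM (log2 ratio -0.26). Neither passed the test, their q-values being 0.966 and 0.999 by the authors' deposited table.

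Some levels may include reads of other genes. In GENCODE M21, 11 of the 36 genes share exon bases with another gene, 10 of them with a gene on the opposite strand, and the strand setting of the counting is unknown here. The largest share was that of Kif20a, 29.3% of whose exon bases overlap Cdc23, a gene at 12.0 and 10.5 FPKM. Ccna2 shares 12.5% with Exosc9, at 25.3 and 26.8 FPKM. Cdc20 shares 2.84% with Elovl1, the highest in level of these overlapping genes, at 124 and 118 FPKM. Espl1, Cenpf, Cenpa, Cdk1 and Pttg1 share none. Ccnb1 and Ccnb2 each have a named pseudogene.

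What the authors' test called depended on level. Between 1 and 2 FPKM it called 1.53% of 1110 loci, with a smallest called ratio of 1.78-fold, and between 2 and 5 FPKM 1.86% of 1827 loci, with a smallest of 1.55-fold. These ranges hold 8 and 12 of the 36 genes. From 10 to 50 FPKM, with 5 of the genes, it called 2.40% of 4627 loci, down to 1.40-fold. Ratios below these sizes were not called at such levels, and the depth of each sample is unknown.

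**Figure D3:**
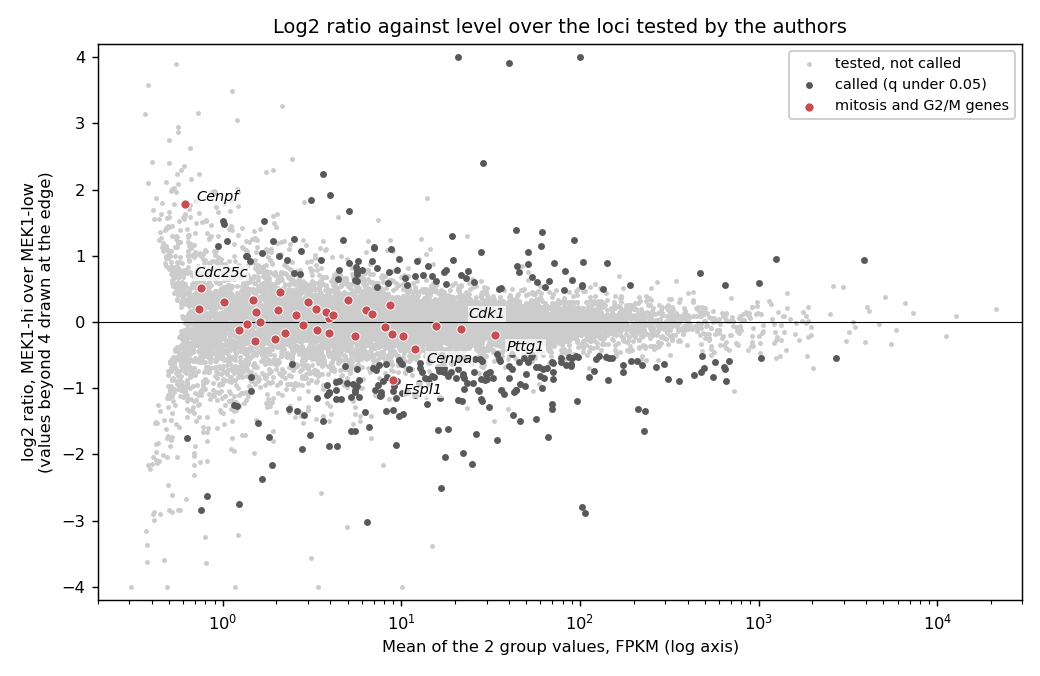
Log2 ratio (MEK1-hi over MEK1-low) against the mean of both group values in FPKM (log axis) for the loci tested, with called loci in dark grey and the 36 genes in red. Most of the genes lie in the central band of loci that were not called, Cenpf at 1.78 among scattered low-level loci, and Espl1 at -0.87 beside called loci although it was not called.

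Mitotic genes outside the 36 were read from a second list of 48, of which 42 were tested and 0 called by Cuffdiff, beside 2.44% of all loci tested. The median log2 ratio of the 42 was 0.08, with 27 higher and 15 lower. The best expressed were Cks1b, a CDK subunit, at 25.2 and 22.8 FPKM, and the condensin gene Smc4 at 11.2 and 9.78 FPKM. Unadjusted p-values under 0.05 went to 4 higher values (9.52%) and 0 lower, against 3.53% of all loci higher and 5.12% lower. These 4, named after their values were seen, were Cdca5, which encodes the cohesin protector sororin (1.58 and 2.47 FPKM), the kinetochore genes Cenpn (1.10 and 1.94 FPKM) and Spc25 (2.32 and 3.49 FPKM), and the condensin gene Smc2 (3.37 and 4.35 FPKM). Spc25 and Spc24, the latter also named after its values were seen (1.98 and 2.03 FPKM), complete the complex of Ndc80 and Nuf2, so its 4 transcripts lay between 1.46 and 3.49 FPKM.

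The regulators of the programme were not called either. Of 21 tested genes of G2/M transcription factors and the DREAM and MuvB complexes, 0 were called by Cuffdiff and 2 were higher at an unadjusted p under 0.05, with a median log2 ratio of 0.14. The 2, named after their values were seen, were E2f2 (3.69 and 4.98 FPKM) and E2f3 (6.36 and 8.17 FPKM). Foxm1 and Mybl2, the factors that switch on G2/M genes, also named after their values were seen, stood at 1.72 and 1.77 FPKM, in a locus of several genes, and at 2.59 and 2.20 FPKM. Nfya, a subunit of the factor that binds CCAAT, stood at 59.0 and 64.8 FPKM, and Rbbp4, a MuvB subunit, at 43.8 and 44.1 FPKM. Of 16 brakes on CDK1 and G2 checkpoint genes, 0 were called, beside the same 2.44%, and the median log2 ratio was -0.07. At an unadjusted p under 0.05, 1 was higher and 1 lower (12.5%, beside 8.66% of all loci tested). Those were the damage kinase gene Atm (2.31 and 4.003 FPKM) and the stress gene Gadd45b (39.4 and 28.7 FPKM), named after their values were seen. Cdkn1a, which encodes the CDK inhibitor p21, stood at 78.7 and 95.6 FPKM, and the antiproliferative gene Btg1 at 69.0 and 55.3 FPKM.

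Core subunits of the APC/C and the loaders and subunits of cohesin, most of which are used in resting cells too, mostly stood higher in level than most of the 36 genes. An exception, named after its values were seen, was Esco2 of the cohesin list, at 0.373 and 0.665 FPKM. Of 16 APC/C genes, 0 were called by Cuffdiff, also at an unadjusted p under 0.05, and the median log2 ratio was -0.10. Anapc5 stood at 52.8 and 61.3 FPKM and Anapc13 at 59.0 and 47.1 FPKM. Of 12 cohesin genes, 0 were called, also at an unadjusted p under 0.05, and the median was 0.05. Over all loci tested, 2.44% were called and 8.66% had an unadjusted p under 0.05. Pds5a, a cohesin regulator, stood at 28.6 and 35.1 FPKM, and the cohesin subunit gene Stag2 at 24.0 and 26.1 FPKM.

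The preceding stage of the cycle gave other values. Of 31 tested G1/S and replication genes, 5 rose with MEK1-hi exosomes in the authors' deposited table (16.1%, against 0.751% of all loci higher) and 0 fell, with 27 values higher and 4 lower. Unadjusted p-values under 0.05 went to 10 higher values (32.3%) and 0 lower, against 3.53% of all loci higher and 5.12% lower. The 5 that rose were subunits of the MCM helicase: Mcm5 (12.9 and 21.8 FPKM), Mcm2 (9.13 and 14.7 FPKM), Mcm3 (17.7 and 28.2 FPKM), Mcm4 (8.67 and 12.8 FPKM) and Mcm6 (29.1 and 41.2 FPKM). Mcm7 of the same helicase, named after its values were seen, stood at 4.76 and 8.26 FPKM, in a locus joined with small RNA genes. Its log2 ratio of 0.79 was larger than those of the 5, but it was not called (q = 0.761 by the authors' deposited table). Pcna, the sliding clamp of replication, stood at 79.3 and 104 FPKM, with q = 0.215 by the authors' deposited table. The median log2 ratio of this list was 0.39, against 0.03 for the 36 mitosis and G2/M genes, and its summed level was 1.30 times as high with MEK1-hi exosomes, against 0.943 times. Both lists were chosen with earlier results of these data known, so these shares and medians are descriptions only. Whether the lists differ was not tested, since genes are not replicates.

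**Figure D4:**
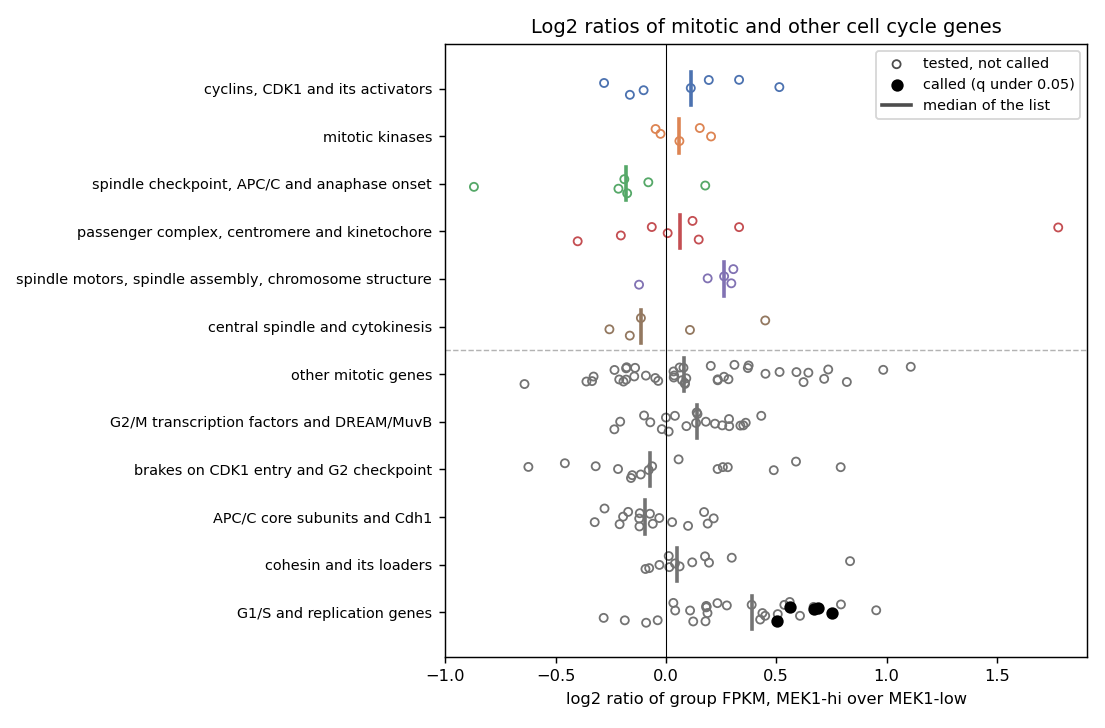
Log2 ratios of group FPKM (MEK1-hi over MEK1-low) for the 36 genes by role, above the dashed line, and for other cell cycle lists below it, with 1 point per tested gene, filled where called, and a bar at each median. Medians of the role groups lie between -0.18 and 0.26, and the 5 called points are all among the G1/S and replication genes, whose median is 0.39.

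Macrophage markers were abundant in both groups. The 2 highest in level, both with higher values under MEK1-hi exosomes, were Lyz2 (12303 and 13148 FPKM) and C1qb (1755 and 2048 FPKM). Of 10 markers, 7 values were higher with MEK1-hi exosomes and 3 lower, with a median log2 ratio of 0.05. Cuffdiff called 1 of these markers, beside 2.44% of all loci tested. It was Cd14, which fell by 0.65 on the log2 scale (213 and 136 FPKM), with q = 0.00349 by the authors' deposited table. At an unadjusted p under 0.05, 1 marker was higher and 1, Cd14, was lower, beside 8.66% of all loci tested. Of 10 fibroblast and sarcoma cell markers 7 were tested and 0 called by Cuffdiff, also at an unadjusted p under 0.05. Of the 7, 1 value was higher with MEK1-hi exosomes and 6 were lower, with a median log2 ratio of -0.23. All 10 summed to 11.3 and 10.3 FPKM, and none was listed at 0. The highest in level were Acta2, the 1 higher value, at 3.94 and 4.34 FPKM, and Col1a1 at 1.60 and 1.59 FPKM. These levels are of the same size as those of many of the 36 genes, and their part in the values of these genes was not tested. T cell markers other than Cd4 (6.52 and 4.52 FPKM) stood at 0.249 FPKM or less in both groups, S100a9, Ly6g, Mpo and Elane of the neutrophil list were listed at 0 in both while Csf3r (37.8 and 30.8 FPKM) and S100a8 (35.5 and 22.6 FPKM) were not called, and endothelial markers summed to 1.93 and 1.31 FPKM. Map2k1, which encodes MEK1, had 63.3 and 57.0 FPKM in the recipient cells, with q = 0.999 by the authors' deposited table.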

How the data were processed

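RNA of 4 samples was sequenced from 750 ng inputs as paired 100 bp reads with a stranded mRNA kit, per the labels' protocols, which aimed at about 25000000 reads per sample. FastQC 0.73, TopHat, Cufflinks, Cuffdiff and build mm10 are named in the submitters' processing notes, and settings are not given in the sources used here. The authors deposited 1 FPKM value per group, and the depth behind it is unknown. The authors' deposited p-value, q-value and test score were used as given, since no test across samples can be fitted to group values. The deposited q-value equals a Benjamini-Hochberg adjustment of the p-value over the 12648 tested loci within 5.19e-07. GFP exo was matched to MEK1-low through the treatment label.

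Log2 ratios were computed without a pseudocount in Python 3.11.15 with pandas 2.3.3. A gene was called at q under 0.05. Symbols were matched for 54771 of 55029 identifiers (99.5%), and 871 tested loci join several genes. A gene with several loci (Rb1) was read from its highest. Gene positions come from GENCODE M21. Promoters were the first RefSeq entry of each gene, and 21 of the 30 matched a GENCODE transcript in the printed orientation and 0 in the reverse. Calculations were tested on simulated data.

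The members and lists were chosen with earlier results of these data known. All 36 members may be named, and of each other list up to 4 called genes and the 2 highest in level. Cdt1, Gins2 and protein sequences were not analysed here. Alternatives were other thresholds, adjustments, pseudocounts, filters and scalings.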

Additional observations from a re-analysis of the deposited data

How the results depend on the processing

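The count of 0 called mitosis and G2/M genes, in either direction, was the same with q under 0.1. It was also the same with p adjusted over loci of at least 1 FPKM or at least 0.1 FPKM in either group, but these settings could not add a call. The first leaves out Cenpf, and the smallest Cuffdiff p of the other genes was 0.12, which adjustment cannot lower. In the second, the Cuffdiff p of Cenpf, 0.0481, would need nearly all loci to have p-values as small. Only 8.66% of all loci tested had an unadjusted p under 0.05. With single-gene loci only, or with an absolute test statistic of at least 2, calls can only be removed, so the 0 could not change. The smallest q-value of the 36 genes was 0.564, so q under 0.1 could not add a call either. The G1/S and replication genes that rose numbered 5 to 7 under all these settings. The median log2 ratio of the 36 genes was 0.03, and it was -0.025 over genes of at least 1 FPKM in either group, 0.0075 over single-gene loci and 0.0776 with both groups rescaled to the same FPKM total, so its sign is not stable. Scaling to that total took the summed ratio from 0.943 to 0.972. For single members, a pseudocount cannot change the sign of the log2 ratio, and the scaling to the same FPKM total shifts all ratios alike by 0.04. Of the 36 signs that of Bub1 changed, which went from -0.03 to 0.0185 with the same FPKM total. No paired analysis was possible because the table holds 1 value per group, and for the same reason no replicate could be left out. The depth per sample is unknown, which leaves the precision of genes under 1 FPKM, such as Cenpf and Cdc25c, unmeasured.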

Other observations

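At the ends of the level range the 36 genes leaned to 1 direction each, which was noticed after their values were seen, while the genes between them went both ways. All 5 genes with a mean of 10 to 50 FPKM (Cdk1, Pttg1, Incenp, Cenpa and Birc5) had lower values with MEK1-hi exosomes, while 50.2% of the 4627 loci tested at that level did. All 3 genes between 0.5 and 1 FPKM (Cenpf, Cdc25c and Ttk) had higher values, where 49.1% of loci were lower. Of the other genes, 4 values were higher and 4 lower at 1 to 2 FPKM, 8 and 4 at 2 to 5 FPKM, and 4 and 4 at 5 to 10 FPKM, with median log2 ratios of -0.01, 0.11 and 0.02. Spearman's rho between mean level and log2 ratio was -0.461 over the 36 genes and -0.055 over 12606 loci tested, and -0.372 without Cenpf and Espl1. These are descriptions across genes that share the same libraries, and none of the 36 was called.

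As none of the 36 genes was called, the promoter elements could not be set against calls. The 20 genes with both an NF-Y box and a CHR-like element had a median log2 ratio of -0.06 and the 10 others with a matched promoter had a median of 0.08. The promoters of Pttg1, Mad2l1, Nuf2 and Nusap1 held neither element in the window searched.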
